A study of Mus musculus with 9 samples.

Results

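The subject here is a set of 10 genes that encode ligands and receptors of apelin and of vascular endothelial growth factor (VEGF), followed across 3 days of embryoid body differentiation. The members are Apln, Aplnr, Vegfa, Vegfb, Vegfc, Pgf, Kdr, Flt1, Flt4 and Nrp1, which are 10 of the 22180 genes measured. Each member was read from a probe set that carries its symbol alone, and since each had 1 such probe set no choice between probe sets was needed. The set itself was chosen on earlier results from the same arrays, in which Aplnr and Vegfa had stood out by their change between days 4 and 7. For those genes that change is therefore given as a description without a test, and the counts of members below are descriptions too.

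Mouse embryonic stem cells that carry Afp::GFP, a reporter in which the alpha-fetoprotein promoter drives green fluorescence, were grown as embryoid bodies in serum-containing medium with transferrin and ascorbic acid, and were left to attach and spread on gelatin. Reporter-positive cells were taken by flow cytometry at days 4, 7 and 21, with 3 arrays for each day and no untreated or unsorted group. All 9 arrays share the transgene, the medium and the sort. The labels do not say whether the arrays of a day came from separate cultures, so each p-value reflects array-to-array spread alone, and that spread may be technical.

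Signals are log2 values, and a difference of 1 is a 2-fold change. Levels of different probe sets are not read as relative abundance, because probes differ in brightness. Brightness was used to pick the probe set of a gene and the marker genes named, and to compare signals with a background reference. Summed signals of gene lists are given as well, and the brightest probe sets weigh most in them. The 95th percentile of 1105 olfactory receptor genes, which are silent in most cells, served as a background reference, and it averaged 6.06 at day 4, 6.06 at day 7 and 6.03 at day 21. Arrays of the same day correlated at 0.984 to 0.991 across genes. The label was checked on Afp, whose signal averaged 5.72 ± 0.18 (SD, n = 3) at day 4, below that reference, 10.60 ± 0.07 at day 7 and 13.07 ± 0.11 at day 21. Transcript of the sorting marker was thus not seen above background in the day 4 cells. Of 11 genes fixed to check the endodermal identity of the cells, 7 were above background at day 4, 10 at day 7 and 11 at day 21, and Alb rose above it at day 21.

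VEGF-A is secreted as a dimer and acts on the receptor tyrosine kinases Flt1 (VEGFR1) and Kdr (VEGFR2), and Kdr carries most of its growth signal in endothelial cells. Placental growth factor (Pgf) and VEGF-B bind Flt1, VEGF-C binds Flt4 (VEGFR3) and also Kdr, and Nrp1 is a co-receptor for VEGF-A and a receptor for class 3 semaphorins. Apelin (Apln) and Elabela (Apela) are peptide ligands of the G-protein-coupled receptor Aplnr, which in the early embryo is known from the mesoderm and mesendoderm that leave the primitive streak. Vegfa is induced by hypoxia-inducible factors, and in the yolk sac VEGF made by visceral endoderm acts on Kdr-positive mesoderm beneath it.

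Between days 4 and 7, Aplnr and Kdr were lower and Vegfa and Nrp1 were higher in the sorted cells. Between days 7 and 21 Vegfa rose further while Aplnr, Kdr, Nrp1 and Vegfb fell, as did Apln, whose signal lay near background. The receptor Flt1 stayed between 8.28 and 8.93 on all 9 arrays. Of the 10 members, 4 were called between days 4 and 7 (40.0%), against 13.4% of all genes tested. They divided into 2 higher and 2 lower, where 6.98% of all genes were higher and 6.47% lower. Between days 7 and 21, 6 members were called, 1 higher and 5 lower, against 23.0% of all genes called, 12.4% higher and 10.7% lower. Between days 4 and 21, 6 members were called, 1 higher and 5 lower, against 29.1% of all genes, 15.0% higher and 14.1% lower. The groups of 3 arrays did not overlap for 7, 7 and 8 members in these 3 comparisons, against 29.9%, 35.5% and 40.4% of all genes. The median change of the members was -0.00, -0.52 and -0.43, where the median over all genes was -0.01, -0.03 and -0.03. A call is a Benjamini-Hochberg adjusted p under 0.05 in limma, a linear model fitted to all genes, with no minimum fold. When a change beyond 1.5-fold was demanded, 2, 0 and 3 members were called, against 596, 1168 and 1575 of all 22180 genes.

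**Figure D1:**
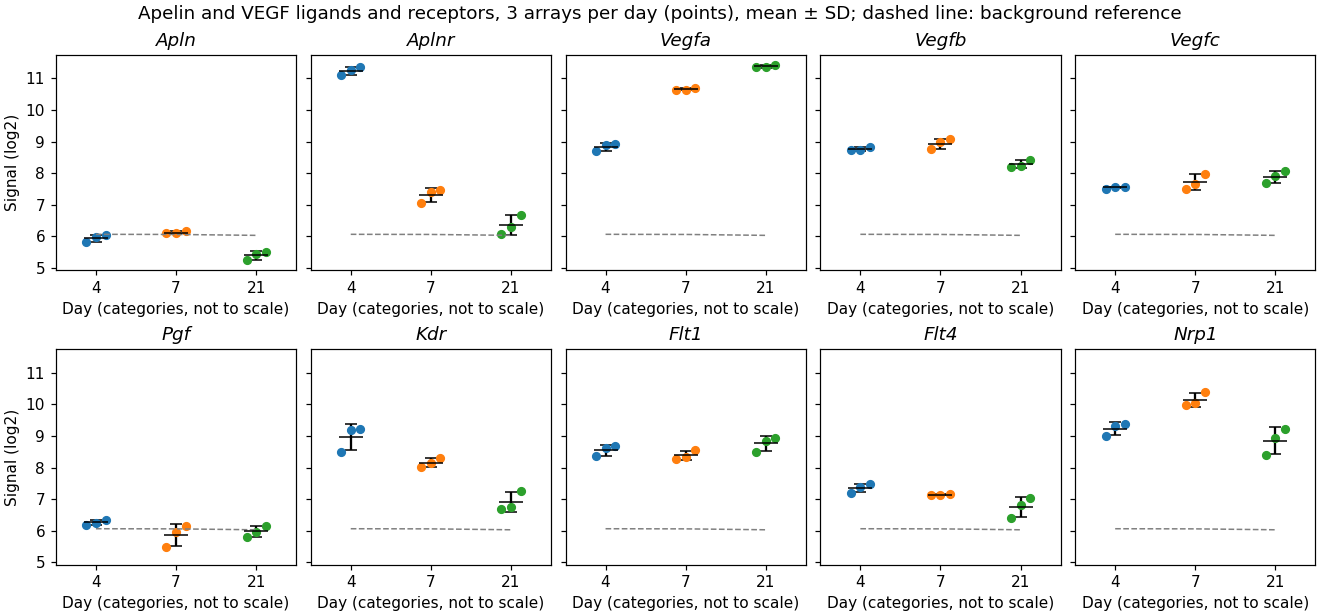
Signal (log2) of the 10 genes on each array, by day of differentiation. Points are arrays, bars are the mean ± SD of 3 arrays, and the dashed line is the background reference. Aplnr falls from about 11 to near the dashed line, Vegfa climbs from 8.83 to 11.38, and Apln and Pgf lie close to the dashed line throughout.

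Upstream sequence is shown for Kdr, Flt1 and Vegfa, because Kdr and Flt1 bind the same ligand and moved unequally in these cells and Vegfa is that ligand. Of the 10 members, 9 were matched to a RefSeq promoter table of assembly GRCm38.p6, and no entry was matched for Aplnr. Each line gives the 250 bases before the annotated start of transcription, 5′ to 3′ on the gene's strand. The windows are chr5:75978456-75978705 (minus strand) for Kdr, chr5:147726012-147726261 (minus strand) for Flt1 and chr17:46032378-46032627 (minus strand) for Vegfa. Capitals mark matches on either strand to the GC box GGGCGG or to the TATA box TATAAA, and matches to the hypoxia-inducible factor core ACGTG were searched for as well.
Kdr: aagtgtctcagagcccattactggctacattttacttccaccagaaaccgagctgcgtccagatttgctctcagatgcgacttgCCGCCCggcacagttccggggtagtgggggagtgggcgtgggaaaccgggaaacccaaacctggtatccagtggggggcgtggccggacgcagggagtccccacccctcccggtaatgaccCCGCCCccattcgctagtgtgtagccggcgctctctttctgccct
Flt1: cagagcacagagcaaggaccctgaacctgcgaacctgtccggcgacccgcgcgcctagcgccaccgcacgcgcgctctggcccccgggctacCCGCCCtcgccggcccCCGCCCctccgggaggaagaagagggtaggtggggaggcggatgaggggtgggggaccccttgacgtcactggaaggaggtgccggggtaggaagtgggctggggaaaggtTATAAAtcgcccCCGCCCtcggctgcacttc
Vegfa: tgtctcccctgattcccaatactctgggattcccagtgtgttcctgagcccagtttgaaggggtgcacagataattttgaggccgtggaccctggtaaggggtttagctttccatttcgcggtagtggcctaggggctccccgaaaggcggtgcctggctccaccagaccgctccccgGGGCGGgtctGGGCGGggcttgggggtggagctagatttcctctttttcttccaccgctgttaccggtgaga
The Kdr window held 2 GC boxes, the Flt1 window 3 and the Vegfa window 2, and the searched motifs do not overlap in these 3 windows. Of 32851 windows of the same length in the table, 32.7% held at least 1 GC box, 12.4% a TATA box and 16.6% the ACGTG core. The TATA box occurred once in the Flt1 window and not in those of Kdr or Vegfa. The ACGTG letters are in none of the 3 windows, and sequence further upstream was not searched. They occur once in the window of a second annotated Vegfa start, chr17:46025164-46025413, which lies within the gene. These matches describe letters only and say nothing of binding.

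Apln, the gene of the apelin peptide, lay at background. Its signals were 5.97, 6.03 and 5.80 on the day 4 arrays, 6.11, 6.09 and 6.16 on the day 7 arrays, and 5.24, 5.51 and 5.43 on the day 21 arrays. The day 21 arrays were the lowest and did not overlap with either earlier day. The change from day 7 to day 21 was -0.72 ± 0.11 (SE) with a limma adjusted p of 5.94e-04. Its size is set against a floor, because the day 4 and day 21 means were below the background reference. Between days 4 and 7 the arrays did not overlap but the change did not pass, with a value of 0.18 ± 0.11 and an adjusted p of 0.348 by limma.

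Aplnr, the receptor, showed the steepest fall of the 10 genes. The day 4 arrays read 11.10, 11.36 and 11.25, the day 7 arrays 7.05, 7.46 and 7.40, and the day 21 arrays 6.30, 6.08 and 6.69. The 3 days did not overlap, and the day 21 values lay little above background. From day 4 to day 7 the signal was 15.3-fold lower, and from day 4 to day 21 it was 29.5-fold lower, the 3rd largest fall among the 22180 genes over that span. That span holds the change to day 7 by which Aplnr was singled out, so the rank is a description only. The further fall from day 7 to day 21 was -0.95 ± 0.17 with a limma adjusted p of 0.00185, a 1.93-fold decrease. In RNA from sorted populations, fewer cells that carry a transcript and less of it per cell cannot be told apart, here and for every gene below.

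Markers of the primitive streak and nascent mesoderm moved with Aplnr, and their part in its fall was not tested. Of 18 such genes measured, 10 were lower and 2 higher at day 7 than at day 4, with a median change of -0.76. At day 21, 14 were lower and 0 higher than at day 4. These are 66.7% and 77.8% of the list, against 13.4% and 29.1% of all genes. The summed linear signal of the list ran from 7289 to 8235 on the day 4 arrays, from 2755 to 2979 on the day 7 arrays and from 1591 to 1853 on the day 21 arrays. The 3 brightest differed among themselves. Eomes, a T-box factor of the streak, fell in both intervals, from 10.27 ± 0.06 through 7.90 ± 0.18 to 5.84 ± 0.22. Tbx3 rose to day 7 and then fell, and Pdgfra fell to day 7 and then rose. Above background were 16 of the 18 at day 4, 14 at day 7 and 8 at day 21, while Mesp1 and Cdx1 were below it on all days.

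The other ligand of the receptor, Apela, had its highest signal at day 7. Its signals were 7.82, 7.19 and 7.33 at day 4, 8.80, 8.95 and 8.77 at day 7, and 7.55, 7.79 and 7.68 at day 21. The day 7 arrays were above all others, and days 4 and 21 overlapped. Apela rose by 1.39 to day 7 (limma adjusted p = 1.50e-04) and fell by 1.17 to day 21 (adjusted p = 2.95e-04). Furin, a convertase that cleaves precursors including those of apelin and VEGF-C, rose from 8.62 ± 0.18 to 9.60 ± 0.03 by day 7 with a limma adjusted p of 1.50e-04, and its later change of -0.29 did not pass. Of 16 genes of apelin receptor signalling, 2 rose and 2 fell to day 7, and 4 rose and 3 fell from day 7 to day 21, with median changes of -0.05 and 0.09. These are 25.0% and 43.8% of the list, against 13.4% and 23.0% of all genes. Arrb1, a beta-arrestin that uncouples such receptors, fell in both intervals, by 0.57 and by 0.60 on the log2 scale. Gnai1, an inhibitory G-protein subunit, fell by 1.09 to day 7 and rose by 0.82 afterwards. Prkaa2, a catalytic subunit of AMP-activated kinase, rose by 0.69 and then by 0.78.

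Vegfa rose on each day measured. Its signals were 8.92, 8.88 and 8.70 at day 4, 10.63, 10.68 and 10.64 at day 7, and 11.36, 11.43 and 11.35 at day 21. The spread within a day was at most 0.12 (SD), and the days were far apart. The signal was 3.53-fold higher at day 7 than at day 4 and 5.84-fold higher at day 21 than at day 4. The rise from day 7 to day 21 was 0.73 ± 0.09, a 1.66-fold increase, with a limma adjusted p of 2.59e-04.

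Vegfb, a ligand of Flt1, read 8.73, 8.73 and 8.82 at day 4, 8.75, 8.97 and 9.07 at day 7, and 8.20, 8.21 and 8.42 at day 21. Its day 21 values were the lowest, with a fall of 0.65 from day 7 (limma adjusted p = 0.00169), and days 4 and 7 were not resolved (0.17 ± 0.11). The difference Vegfa minus Vegfb within an array grew by 1.65 from day 4 to day 7, which is given without a test because it holds the change that singled out Vegfa. It grew by 1.38 from day 7 to day 21, with no overlap between days. An exact two-sided permutation test of the latter gave p = 0.10, the smallest value that 3 against 3 arrays allow, so this design cannot pass 0.05. Within-array differences were tested 7 times over 3 pairs of genes, and each had a Benjamini-Hochberg adjusted exact p of 0.10.

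Vegfc, the ligand of Flt4, was above background on all days and no change in it was called. It read 7.56, 7.57 and 7.51 at day 4, 7.49, 7.98 and 7.64 at day 7, and 7.90, 8.07 and 7.69 at day 21. The day 7 arrays overlapped with both other days. The day 21 arrays lay above the day 4 arrays, with a difference of 0.34 ± 0.14 and a limma adjusted p of 0.102. Vegfd, the other Flt4 ligand, was 6.82 ± 0.03 at day 4 and 6.74 ± 0.14 at day 7, and rose to 7.74 ± 0.39 at day 21 (limma adjusted p = 0.00164 against day 7). Mesenchyme and smooth muscle markers moved with that rise: of 16, 11 rose and 1 fell from day 7 to day 21. That is 75.0% of the list, against 23.0% of all genes. The summed signal of these markers went from 7035 to 7809 up to 16546 to 25401. Their part in the rise of Vegfd was not tested. Ccbe1 and Adamts3, which act in the cleavage of VEGF-C, had no called change between consecutive days. From day 4 to day 21 Ccbe1 was called higher, by 0.45 (limma adjusted p = 0.0410). Its arrays of those days overlapped, and Ccbe1 was below background throughout. Of 12 measured ligand and ligand-processing genes that are not members, 3 rose and 0 fell to day 7, and 5 rose and 1 fell from day 7 to day 21. The 12 include Apela, Furin, Vegfd, Ccbe1 and Adamts3, which are described above. Mme, a membrane protease that cleaves apelin, rose by 1.32 in the second interval, and Plat, the tissue plasminogen activator, rose by 1.19 over the whole span.

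Pgf, a ligand of Flt1, lay near background, with a mean above the reference at day 4 (6.27 against 6.06) and below it at days 7 and 21. It read 6.20, 6.35 and 6.25 at day 4, 5.48, 5.95 and 6.15 at day 7, and 6.15, 5.97 and 5.81 at day 21. The day 4 arrays were the highest, but no change was called, with -0.41 ± 0.16 to day 7 (limma adjusted p = 0.149) and 0.12 ± 0.16 afterwards (adjusted p = 0.676). Trophoblast is a main source of Pgf in the conceptus. Of 15 trophoblast markers listed, 11 were measured, and all 11 were below background on all 3 days. Their part in the Pgf signal was not tested.

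**Figure D2:**
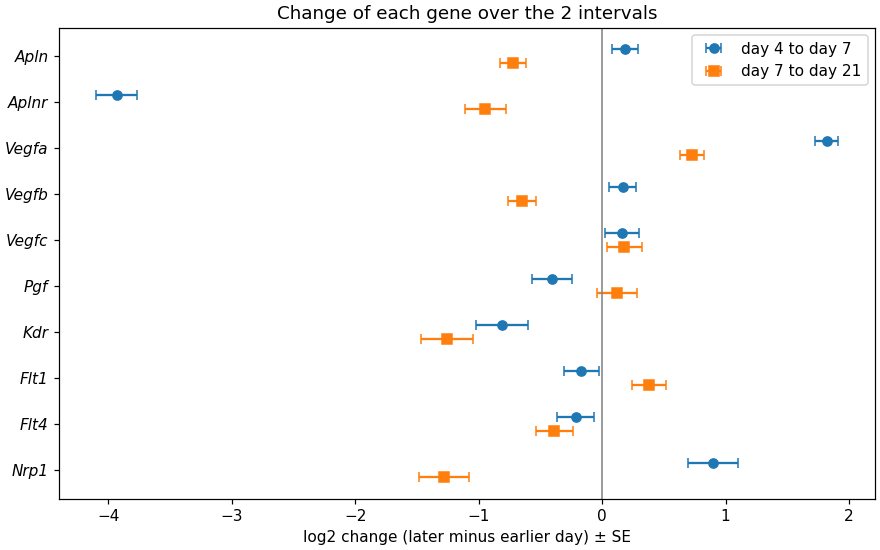
Change of each gene on the log2 scale (later minus earlier day) with its standard error, for day 4 to day 7 (circles) and day 7 to day 21 (squares). Aplnr has its larger change in the first interval (-3.93), Kdr falls in both, and Nrp1 changes sign between them (0.90 and -1.28).

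Kdr fell in both intervals. The day 4 arrays read 8.50, 9.23 and 9.18, the day 7 arrays 8.15, 8.31 and 8.02, and the day 21 arrays 7.27, 6.70 and 6.75. The days did not overlap, although the first day 4 array was only 0.19 above the highest day 7 array. The fall to day 7 was -0.81 ± 0.21 (limma adjusted p = 0.0274) and the fall from day 7 to day 21 was -1.25 ± 0.21 (adjusted p = 0.00141). At day 21 the signal was 4.19-fold lower than at day 4, with a limma adjusted p of 3.66e-05. The call between days 4 and 7 was lost without day 4 replicate 2 (-0.68), day 4 replicate 3 (-0.71), day 7 replicate 1 (-0.81) or day 7 replicate 3 (-0.74), and the other 2 calls were kept whichever array was left out. With the replicate number as a block, the change to day 7 had an adjusted p of 0.0513 by limma.

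No change was called in Flt1, the other VEGF-A receptor. It read 8.36, 8.70 and 8.61 at day 4, 8.54, 8.28 and 8.34 at day 7, and 8.93, 8.85 and 8.51 at day 21. Each pair of days overlapped, and the 3 changes did not pass (-0.17 ± 0.14, 0.38 ± 0.14 and 0.21 ± 0.14). The change from day 7 to day 21 was called, upward, without day 21 replicate 3 (0.51) and when genes at background were left out of the fit. Within an array, the difference Kdr minus Flt1 changed by -0.64 from day 4 to day 7 and by -1.63 from day 7 to day 21. The arrays of consecutive days did not overlap in that difference (exact two-sided permutation p = 0.10, the smallest possible).

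Flt4 read 7.21, 7.46 and 7.39 at day 4, 7.12, 7.16 and 7.15 at day 7, and 6.40, 6.82 and 7.04 at day 21. Each later day lay below the earlier one without overlap. The differences between consecutive days did not pass (-0.21 ± 0.15 and -0.39 ± 0.15), and the difference over the whole span did (-0.60 ± 0.15, limma adjusted p = 0.0118). Without day 21 replicate 3 the fall from day 7 was -0.53 and was called.

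Markers of endothelium, the cell type in which these receptors are best known, divided into genes above and below background. Of 24 such genes, 9 were above background at day 4, 10 at day 7 and 7 at day 21, and 12 were below it on all 3 days, among them Tek, Tie1, Emcn, Cldn5 and Erg. Their summed signal ran from 1512 to 1576 at day 4, from 1617 to 1783 at day 7 and from 1355 to 1470 at day 21. To day 7, 3 rose and 0 fell, and from day 7 to day 21, 1 rose and 7 fell, with a median change of -0.27. The share called was 12.5% to day 7, near the 13.4% of all genes, and 33.3% afterwards, against 23.0%. The 3 brightest were Egfl7, Cdh5 (VE-cadherin) and Pecam1. Cdh5 went from 7.09 ± 0.05 to 7.66 ± 0.14 and then to 6.80 ± 0.36, a rise followed by a fall (limma adjusted p = 0.0421 and 0.00305). Pecam1 rose by 0.59 and fell by 0.53 on the log2 scale (adjusted p = 0.00625 and 0.00657). Across the 24 endothelial genes the median change to day 7 was 0.09, and 21 were not called. Kdr fell over that interval, while Cdh5 and Pecam1 were among the 3 that rose. From day 7 to day 21, Kdr, Cdh5 and Pecam1 all fell. The primitive streak and nascent mesoderm list given above moved with Kdr in both intervals. Of its 18 genes, 10 were lower and 2 higher to day 7, and 7 lower and 1 higher from day 7 to day 21. These are 66.7% and 44.4% of that list, against 13.4% and 23.0% of all genes. The part of either list in the Kdr values was not tested. Blood markers lay mostly at background, with 9 of 13 below background on all days. Genes at background were common on these arrays, since leaving them out of the fit kept 12299 of 22180 genes. That filter also removed Apln and Pgf, which were not below background on all days, so its rule was not the same. The endothelial and blood counts thus have no matching share of all genes and are descriptions only.

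**Figure D3:**
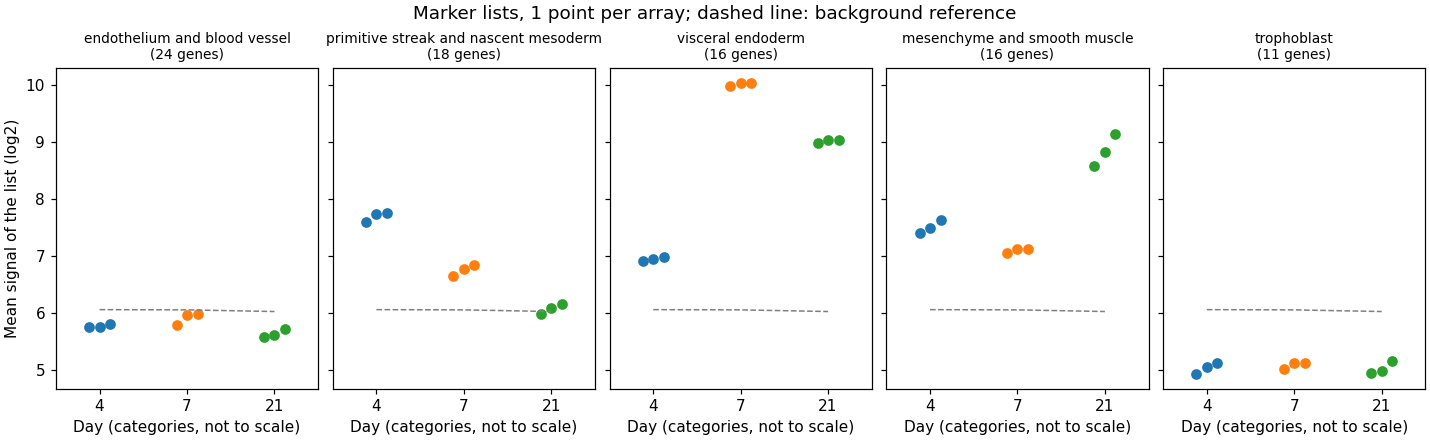
Mean signal (log2) of 5 marker lists, 1 point per array, by day, with the background reference as a dashed line. Endothelial and trophoblast lists stay below the line on every array, the streak and mesoderm list falls with each day, visceral endoderm is highest at day 7 and mesenchyme is highest at day 21.

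Nrp1 rose and then fell back. It read 9.01, 9.38 and 9.31 at day 4, 10.04, 10.38 and 9.98 at day 7, and 9.23, 8.94 and 8.39 at day 21. The day 7 arrays were above all others, and days 4 and 21 overlapped. The rise was 0.90 ± 0.20 (limma adjusted p = 0.0139), the fall -1.28 ± 0.20 (adjusted p = 0.00100), and days 4 and 21 did not pass (-0.38 ± 0.20, adjusted p = 0.208). The rise was not called without day 4 replicate 1 (0.79) or day 7 replicate 2 (0.78).

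Its paralogue Nrp2, a co-receptor for VEGF-C, had a different course. Nrp2 was 9.44 ± 0.09 at day 4, 9.20 ± 0.18 at day 7 and 8.27 ± 0.35 at day 21, with a fall of 0.93 in the second interval (limma adjusted p = 0.00232). Within an array, Nrp1 gained 1.14 on Nrp2 to day 7 and the difference then changed by -0.35, without overlap between days (exact two-sided permutation p = 0.10 for both, the smallest possible).

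Most neuropilin ligands and partners that changed fell to day 7 or rose to day 21. Of 14 genes of neuropilins, semaphorins and plexins, 0 rose and 6 fell to day 7, and 8 rose and 2 fell from day 7 to day 21, with medians of -0.32 and 0.77. These are 42.9% and 71.4% of the list, against 13.4% and 23.0% of all genes. Sema3c, a class 3 semaphorin, was below background at days 4 and 7 and rose to 10.28 ± 0.18 at day 21. Sema3d followed the same course, to 8.28 ± 0.52. Plxna4, a plexin that signals with neuropilins, fell by 2.32 to day 7 and rose by 0.97 afterwards, and Sema3e fell by 1.61 and rose by 1.18. Plxna2 fell in both intervals, by 0.92 and 1.26. The mesenchyme markers given above moved with the rises to day 21, and their part in them was not tested.

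In the wider VEGF receptor pathway 5 genes changed to day 7 and 16 afterwards. Of 39 genes measured, 3 rose and 2 fell between days 4 and 7, and 10 rose and 6 fell between days 7 and 21, with medians of -0.01 for both. That is 12.8% of the list to day 7, near the 13.4% of all genes, and 41.0% afterwards, against 23.0%. The 3 that rose to day 7 were Pik3cb, a catalytic subunit of phosphoinositide 3-kinase (1.53), and the calcineurin regulators Rcan1 (1.45) and Rcan2 (0.98), of which Rcan1 is a known VEGF-induced gene and Rcan2 was at background at day 4. All 3 fell from day 7 to day 21, by 1.05, 1.30 and 0.56. Ptprj, a phosphatase that can act on Kdr, fell by 1.49 and then rose by 1.83. Prkca, a protein kinase C, and Pik3r1, a regulatory subunit of phosphoinositide 3-kinase, rose in the second interval by 1.63 and 1.05. Of 23 other angiogenic ligands and receptors, 0 rose and 5 fell to day 7, and 9 rose and 1 fell afterwards, or 21.7% and 43.5% of the list. Jag1, a Notch ligand, fell by 2.21 and rose by 2.18, and Notch1 fell by 1.45 and rose by 0.83. The chemokine receptor Cxcr4 fell by 1.17 to day 7 and changed by -0.04 thereafter.

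Genes of the hypoxia-inducible factor system rose with Vegfa in part. Of 27 measured, 10 rose and 3 fell to day 7, with a median change of 0.24, and 14 rose and 4 fell from day 7 to day 21, with a median of 0.40. These are 48.1% and 66.7% of the list, against 13.4% and 23.0% of all genes. Over the whole span 17 rose and 1, Hif1a, fell, or 66.7% of the list against 29.1% of all genes. The prolyl hydroxylase Egln3 rose in both intervals as Vegfa did, from 8.17 ± 0.05 through 8.97 ± 0.10 to 10.14 ± 0.12. Bnip3, a mitophagy receptor, rose by 1.57 and then by 0.40, from a day 4 mean below background. P4ha1, a collagen prolyl hydroxylase, rose by 1.85 to day 7 and changed by -0.06 afterwards, and Pgk1, a glycolytic kinase, rose by 1.26 and fell by 0.50. Adm, the adrenomedullin gene, rose by 2.71 and Ndrg1 by 2.44 in the second interval alone, while their changes to day 7 (0.32 and -0.12) did not pass. Bhlhe40, a transcriptional repressor, fell by 1.26 to day 7 and rose by 2.30 by day 21.

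The factors themselves differed from each other. Epas1, which encodes HIF-2 alpha, read 7.17, 7.25 and 7.33 at day 4, 7.47, 7.37 and 7.37 at day 7, and 10.44, 10.21 and 10.10 at day 21. The rise came between days 7 and 21, with 2.84 on the log2 scale and a limma adjusted p of 5.64e-08. Arnt, their common partner, changed by 0.24 and 0.19 without a call in either interval, and rose by 0.42 over the whole span (limma adjusted p = 0.00456). Hif1a, which encodes HIF-1 alpha, went from 9.94 at day 4 to 9.42 at day 21 on its brighter probe set, a fall of 0.51 (limma adjusted p = 0.00614). Its other probe set was below background on all days and had a higher mean at day 21 (5.77) than at day 4 (5.26).

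**Figure D4:**
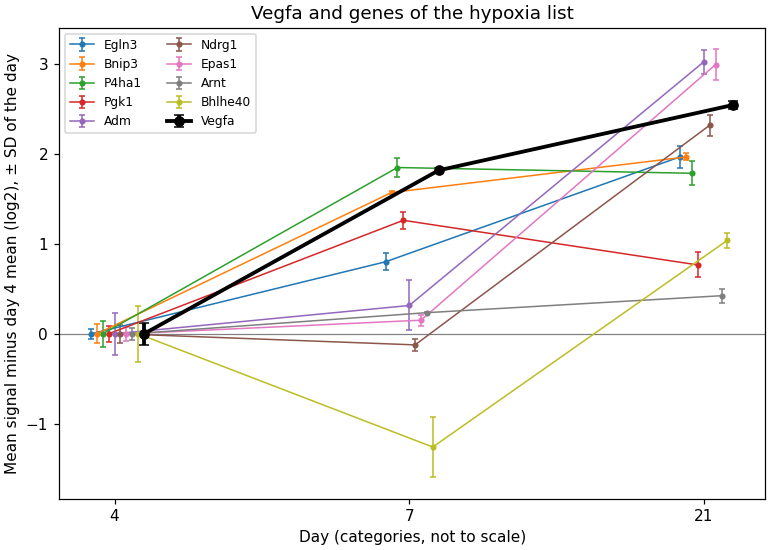
Day means of Vegfa (thick line) and of 9 genes of the hypoxia list, each minus its own day 4 mean (log2), with the SD of each day. Vegfa and Egln3 rise in both intervals, P4ha1 and Pgk1 reach their highest mean at day 7, and Adm, Ndrg1 and Epas1 rise between days 7 and 21.

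Markers of visceral endoderm rose with Vegfa and Nrp1 to day 7, and their part in those changes was not tested. Of 16 such genes, 14 rose and 0 fell to day 7, and 3 rose and 12 fell from day 7 to day 21. These are 87.5% and 93.8% of the list, against 13.4% and 23.0% of all genes. The summed signal of the list went from 3401 to 3699 at day 4 up to 35175 to 35769 at day 7 and was 16268 to 18267 at day 21. The list includes Afp, whose promoter drives the sorting reporter, so it is not independent of the sort. Afp, Ttr, Apoa1, Hnf4a and Foxa2 are also among the genes of the identity check. The highest level of that list was at day 7, as for Nrp1 and Apela, whereas Vegfa was highest at day 21. Spink1, Apob and Dab2, the 3 brightest, each rose to day 7 and fell to day 21. Of 16 cardiac muscle genes, 7 rose and 0 fell to day 7, and 0 rose and 5 fell from day 7 to day 21. The shares called were 43.8% and 31.2%, against the same 13.4% and 23.0% of all genes.

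For the 4 members whose day means spanned at least 1 on the log2 scale, the genes of most similar pattern were sought among 17120 named protein-coding genes. Likeness is the root mean square difference over the 9 arrays after each gene is centred on its own mean, and it describes these arrays without a test. The nearest to Aplnr were Gabrb2 (0.58), Rspo3 (0.62), Tdgf1 (0.67) and Eomes (0.69), which are distant matches. The other 3 members had closer neighbours. Nearest to Kdr were Bmper (0.13), a secreted modulator of bone morphogenetic protein signalling, Plxna2 (0.17), Dpysl5 (0.21) and Fgf10 (0.24). Nearest to Vegfa were the tight junction gene Ocln (0.14), Cyp3a13 (0.14), the lipid transporter Abca3 (0.16) and Srgn (0.18). Nearest to Nrp1 were Med12 (0.15), Tmem144 (0.17), Rdx (0.17) and Nav1 (0.20).

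**Figure D5:**
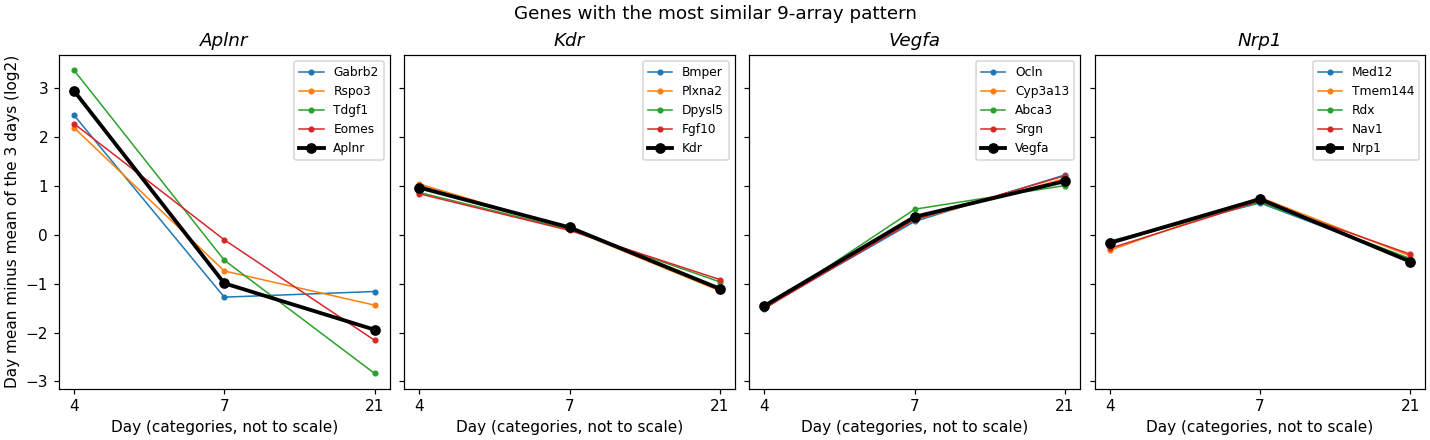
Day means of Aplnr, Kdr, Vegfa and Nrp1 (thick lines) and of their 4 most similar genes, each minus its mean of the 3 days (log2). The lines for Kdr, Vegfa and Nrp1 nearly coincide with those of their neighbours, and those around Aplnr spread more widely.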

How the data were processed

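The authors deposited RMA output on the log2 scale, 1 value for each probe set and array, and the submitters' processing notes name Affymetrix Expression Console as the software (version not given in the sources used here). Because RMA forces arrays onto 1 distribution, a change common to most transcripts cannot be seen. Per the labels' protocols, RNA was amplified with a kit for picogram amounts, which can distort ratios of dim transcripts. Precision is limited by the number of arrays, since array signals carry no counts.

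The table held 34365 probe sets, of which 23521 carry 1 gene symbol, 1814 several and 9030 none here, and 23328 of the first matched a RefSeq table of GRCm38.p6. The brightest probe set per gene was kept, which left 22180 genes. With limma 3.58.1 (R 4.3.3), day means were estimated by lmFit over the full set of 9 arrays and compared with eBayes, two-sided, with Benjamini-Hochberg adjustment over every gene.

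The members, the gene lists and the background reference were chosen with earlier results of these arrays known. All members are named. Of each pathway list, genes are taken from 9 fixed names and from the 4 called genes of largest change per comparison. Of marker lists the 3 brightest are named. Genes named as below background in marker lists were picked after their values were seen. Some genes, such as Tek, Tie1 and Pdgfra, count in more than 1 list. Alternatives covered the arrays fitted, the replicate block, the variance prior, scaling, probe sets, dim genes, a minimum fold and each array left out.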

Additional observations from a re-analysis of the deposited data

How the results depend on the processing

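Of 504 recomputed member changes, 483 stayed on their side of the threshold, 18 lost a call and 3 gained one. No called change turned its direction. Only rescaling, or leaving out an array of a compared day, could alter a member's estimate, since the other settings left it the same. Each member had 1 probe set, so averaging probe sets repeated the main estimates. The 504 include the changes by which Aplnr and Vegfa were singled out. Demanding a change beyond 1.5-fold gave 11 of the 18 losses by construction. It left 2 members called between days 4 and 7, 0 between days 7 and 21 and 3 between days 4 and 21. Of all 22180 genes, 596, 1168 and 1575 were called under that demand. In limma with no minimum fold the member counts were 4, 6 and 6. Same-numbered arrays did not deviate together across all days (correlations of deviations from day means between -0.05 and 0.26), so the numbers were not taken to pair the samples. Arrays of days 7 and 21 nevertheless each correlated best with their own number, a hint from the data. With the replicate block, 3, 6 and 6 members were called, Kdr between days 4 and 7 being the one lost. Leaving out single arrays gave 3 to 4, 6 to 8 and 6 to 6 called members. Leaving out genes at background removed Apln and Pgf from the fit. Apln and Pgf lie too near background for their sizes to be read.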
